A study of Homo sapiens with 28 samples.

Results

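The genes described here are 8 secreted or membrane-bound factors of the senescence-associated secretory phenotype (IGFBP3, IGFBP4, IGFBP6, PLAUR, CXCL8, CXCL1, TIMP1 and TIMP2) and LMNB1, a nuclear lamina gene. They were taken by symbol, 9 of the 58278 genes in the count table, and are followed over 8 conditions. The study treated xenografts of HCT116, a human colorectal carcinoma cell line, with Palbociclib, an inhibitor of the cell cycle kinases CDK4 and CDK6, with Telaglenastat, an inhibitor of the enzyme glutaminase, or with both. HCT116 cells carrying Luciferase-GFP were injected under the skin of male NOD-SCID mice aged 5 weeks. These mice lack functional T and B cells but keep innate immune cells and stroma. Vehicle (Control), Palbociclib at 100 mg/kg/day, Telaglenastat at 150 mg/kg/day or the same doses of both (Combination) were given by oral gavage for 23 days. The labels spell the glutaminase inhibitor Telaglenestat. Residual tumors were sequenced from 3 Control, 5 Palbociclib, 4 Telaglenastat and 4 Combination mice. Independent cell lines, 3 per group and 12 in all, were derived from tumors of each group and grown without drug. Which tumor gave which line was not stated, and all groups derive from a single cell line.

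Senescent cells stop dividing for good, and many of them release a mixture of proteases, protease inhibitors, chemokines and growth factor binding proteins called the senescence-associated secretory phenotype. Insulin-like growth factor (IGF) binding proteins hold IGFs outside the cell, CXCL8 and CXCL1 attract neutrophils, the urokinase receptor PLAUR focuses plasmin formation at the cell surface, and TIMPs inhibit matrix metalloproteinases. Loss of the lamin encoded by LMNB1 is a widely used mark of senescent cells, and prolonged CDK4/6 inhibition is known to bring some tumor cells into a senescence-like arrest. LMNB1 is also expressed more in dividing cells. In bulk tumor RNA, fewer cells that express a gene and less RNA of it per cell cannot be told apart.

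Libraries held 6273834 to 10617936 counted reads in tumors and 7198540 to 13815675 in cultures. Levels are given as CPM, read counts scaled to a common library total across all 28 libraries. A gene is said to rise or fall where its Benjamini-Hochberg adjusted p was under 0.05 in edgeR's quasi-likelihood test, adjusted over every gene tested, and fold changes are on the log2 scale with their standard error (SE). Colorectal epithelial markers were abundant in every group (summed over 8 genes, 2626 to 3168 CPM in Control, 1558 to 1716 in Telaglenastat and 2261 to 3998 in the other tumors, and 1322 to 2512 in cultures), while CEACAM5 was at 0.313 CPM or less and VIL1 at most 8.99. EPCAM was similar in Control tumors and cultures (395 and 383 CPM), but KRT19 was 453 and 135 CPM and 114 in Telaglenastat tumors, and KRT8 1128, 651 and 473 CPM. Of the 8 fibroblast markers, summed levels were 153 to 193 CPM in Control, 111 to 188 in Palbociclib, 50.5 to 63.3 in Telaglenastat and 98.6 to 146 in Combination tumors, against 2.42 to 8.14 CPM over all cultures. COL1A1, COL1A2 and COL3A1 made up most of these sums, and LUM was at 0 in every tumor. Summed macrophage markers (7 genes) were 14.4 to 19.8, 22.2 to 30.8, 2.71 to 10.2 and 9.68 to 16.7 CPM in the same order of tumor groups, with PTPRC, a marker of all leukocytes, at most 0.313 CPM. Summed endothelial (5 genes) and neutrophil (5 genes) markers stayed at or below 2.94 and 0.736 CPM. The host is a mouse and the reads were aligned to a human genome, so host cells could appear only through reads that align across species. Their part in the results below was not tested. All marker levels are as deposited, without the correction for GC content described next.

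The GC content of a gene moved with its response to Telaglenastat. Among genes of at most 35% GC the median log2 fold change of Telaglenastat against Control tumors was 0.43, among those of 60 to 65% it was -1.42, and Combination tumors showed the same slope (0.31 and -1.17). In Palbociclib tumors the corresponding medians were -0.06 and 0.06. The 9 genes run from 33.4% GC (CXCL8) to 64.1% (IGFBP6). Values are therefore also given after each library was adjusted for how its counts ran with GC content and length ("corrected") wherever this ends a call, turns a direction or moves a fold by over 1.5 times. Whether the slope came from the drug or from the libraries cannot be told apart, because it follows the treatment groups.

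Of the 9 genes, 8 passed the filter on low counts in tumors, and IGFBP4 did not. In Palbociclib tumors 3 of these 8 were called against Control (2 higher, 1 lower), where 6.16% of 14848 genes were called (2.55% higher, 3.6% lower). In Telaglenastat tumors 5 were called (1 higher, 4 lower) against a background of 51.1% (22.6% higher, 28.5% lower), and in Combination tumors 6 (3 higher, 3 lower) against 44.5% (17.6% higher, 26.9% lower). Combination against Palbociclib tumors gave 4 calls (1 higher, 3 lower; background 47.6%, 20.1% higher and 27.5% lower), and Combination against Telaglenastat tumors gave 6 (5 higher, 1 lower; background 18.8%, 8.93% higher and 9.89% lower). These comparisons share samples, so their values are set side by side only. After the correction described above, 3, 4, 5, 3 and 5 of the 8 were called in these 5 comparisons, in the same order, where 7.95%, 14.9%, 26.5%, 15.3% and 16% of all genes were.

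**Figure D1:**
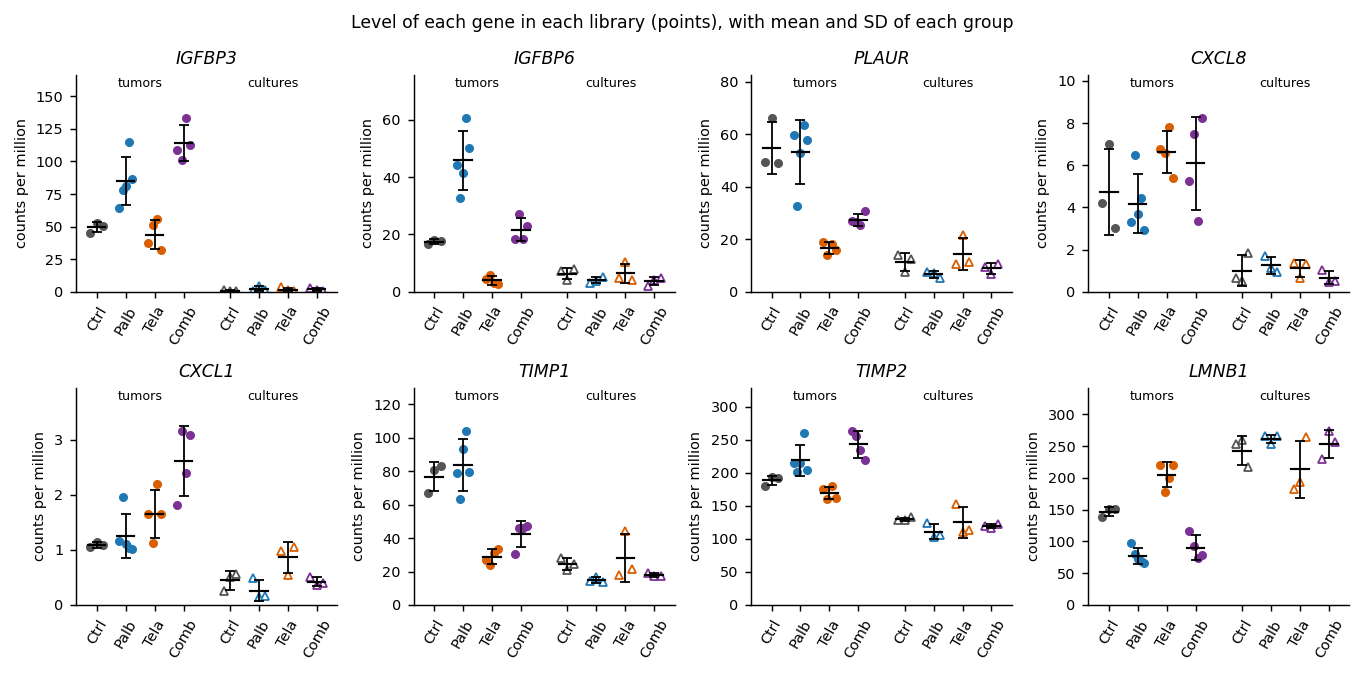
Level in CPM (vertical axes, each starting at 0) of 8 genes in every library, for Control (Ctrl), Palbociclib (Palb), Telaglenastat (Tela) and Combination (Comb) tumors (filled circles) and derived cultures (open triangles). Horizontal bars are group means and error bars are SD. IGFBP3 stands between 31.7 and 133 CPM in tumors and at 4.42 CPM or less in cultures, and LMNB1 is lowest in Palbociclib and Combination tumors.

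IGFBP3 (ENSG00000146674.14, chr7:45912245-45921874, minus strand, GRCh38), the most abundant IGF carrier of blood plasma and a gene that p53 can induce, rose in Palbociclib and Combination tumors and not in Telaglenastat tumors. The Control tumors measured 45.2, 53.1 and 50.8 CPM. The Palbociclib tumors measured 64.1, 78.1, 81.2, 115 and 86.8 CPM, and the Combination tumors 109, 101, 133 and 112 CPM. Every tumor of these 2 groups lay above every Control tumor. The log2 fold change was 0.78 ± 0.17 (SE, 1.72-fold, adjusted p = 0.0066) with Palbociclib and 1.10 ± 0.18 (2.14-fold, adjusted p = 4.43e-05) with the Combination. The Telaglenastat tumors, at 37.1, 51.4, 55.5 and 31.7 CPM, overlapped Control (-0.29 ± 0.18, adjusted p = 0.194). Combination tumors stood 2.62-fold above Telaglenastat tumors (1.39 ± 0.17, adjusted p = 8.24e-06). Against Palbociclib tumors their difference was 0.32 ± 0.15 and was not called (adjusted p = 0.0842), and it was called by DESeq2 (0.36), with DESeq2 size factors (0.37), without the filter (0.35) and without Palbociclib tumor 4 (0.46, adjusted p = 0.0107). In a fit of all 28 libraries the Palbociclib effect was 0.77 and not called (adjusted p = 0.104), and it was called in the other 7 alternatives. With 49.5% GC, IGFBP3 changed little under the correction (0.78 ± 0.17 for Palbociclib and 1.12 ± 0.18 for the Combination).

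IGFBP6 (ENSG00000167779, chr12:53097436-53102345, plus strand), which binds IGF2 in preference to IGF1, rose 2.64-fold in Palbociclib tumors. The levels were 16.5, 18.1 and 17.7 CPM in Control tumors, against 44.3, 32.8, 41.6, 60.7 and 50.2 CPM in Palbociclib tumors, and the groups did not overlap (log2 fold change 1.40 ± 0.20, adjusted p = 0.000114). Telaglenastat tumors held 4.52, 5.86, 2.98 and 2.55 CPM, a fall of -2.22 ± 0.25 (4.67-fold, adjusted p = 4.05e-07). Combination tumors, at 18.4, 27.0, 18.4 and 22.96 CPM, lay just above the Control range and were not called (0.21 ± 0.21, adjusted p = 0.431). No other member depended as strongly on the GC correction, and IGFBP6 is also the richest in GC of the 9 (64.1%). With the trend removed, the Palbociclib effect was 1.31 ± 0.16 (adjusted p = 3.39e-05), the Telaglenastat effect shrank to -0.72 ± 0.22 (adjusted p = 0.0317), and the Combination effect became 1.33 ± 0.18 (adjusted p = 1.58e-05). Combination against Palbociclib tumors, a fall of -1.19 ± 0.18 as deposited (adjusted p = 1.69e-05), was 0.02 ± 0.15 after correction (adjusted p = 0.959). The rise of Combination over Telaglenastat tumors held either way (2.44 ± 0.24, adjusted p = 6.3e-07, and 2.05 ± 0.21, adjusted p = 1.22e-06).

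IGFBP4 (ENSG00000141753.6, chr17:40443461-40457731, plus strand), a binding protein that is cleaved by the protease PAPPA, could not be tested. It had 14 reads in all, in 6 of 28 libraries, and never more than 4 in a library. Its highest level was 0.311 CPM, in a Palbociclib culture. A difference in IGFBP4 between groups was not detectable at this depth.

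Of the 13 other genes of the IGF axis, 9 were tested in tumors. None was called with Palbociclib, 3 fell with Telaglenastat (median of the list -0.29, median of all genes 0.03), and 1 rose and 2 fell with the Combination (median -0.02). The shares of all genes called in these comparisons were 6.16%, 51.1% and 44.5%. After correction 2 rose and 2 fell with Telaglenastat (median 0.01), and 2 rose and 1 fell with the Combination (median 0.24). IGFBP2, another binding protein, fell by -1.91 ± 0.20 with Telaglenastat and by -1.53 ± 0.19 with the Combination (corrected -1.07 and -0.82, both called). IRS2, an adaptor below the insulin and IGF1 receptors, rose with the Combination (0.59 ± 0.19, corrected 1.46), and with Telaglenastat after correction alone (0.30, corrected 1.30). IGF2, the ligand that IGFBP6 prefers, was -0.91 ± 0.14 with Telaglenastat as deposited but 0.26 and not called after correction. In the Combination it was -0.59 ± 0.14 as deposited and 0.41 after correction, called in both with opposite signs. The receptor IGF1R was not called in any of the 3 (0.13, -0.04 and 0.09).

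PLAUR (ENSG00000011422.11, chr19:43646095-43670547, minus strand), the receptor of the protease urokinase, fell in both groups that received Telaglenastat and showed no call with Palbociclib. Control tumors measured 49.3, 66.2 and 48.9 CPM, and Palbociclib tumors 59.9, 32.7, 52.7, 63.5 and 57.9 CPM (log2 fold change -0.03 ± 0.16, adjusted p = 0.954). Telaglenastat tumors measured 19.003, 13.96, 18.2 and 15.9 CPM and Combination tumors 26.8, 26.6, 25.3 and 30.8 CPM. All 8 of these lay below every Control and every Palbociclib tumor. The fall was -1.82 ± 0.18 with Telaglenastat (3.53-fold, adjusted p = 1.02e-07) and -1.10 ± 0.17 with the Combination (2.15-fold, adjusted p = 2.96e-05). After correction both were smaller and still called (-1.12 ± 0.15, adjusted p = 3.48e-05, and -0.53 ± 0.15, adjusted p = 0.011). Combination tumors stood above Telaglenastat tumors by 0.71 ± 0.18 (adjusted p = 0.00751) and below Palbociclib tumors by -1.07 ± 0.16 (adjusted p = 1.26e-05, corrected -0.48 ± 0.13, adjusted p = 0.0153). The fibroblast marker sum was also lowest in Telaglenastat tumors, and so was the macrophage sum, which overlapped that of Combination tumors. Of the 4 fibroblast markers above 1 CPM there, COL1A1, COL1A2 and COL3A1 were lower than in Control tumors. FAP was not (2.00 against 1.68 CPM). A link of these markers to PLAUR was not tested.

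Of 6 other genes of the urokinase system 4 were tested: 1 rose with Palbociclib (list median 0.36, all genes 0.00067), 3 fell with Telaglenastat (-0.78 against 0.03) and 1 rose and 1 fell with the Combination (0.20 against -0.04). Over all genes the shares called were 6.16%, 51.1% and 44.5%, in the same order. PLAU, urokinase itself, rose by 0.84 ± 0.12 with Palbociclib and fell by -0.85 ± 0.13 with Telaglenastat, the latter -0.34 and not called after correction. LRP1, an endocytic receptor, fell by -2.18 ± 0.25 with Telaglenastat and by -2.17 ± 0.25 with the Combination (corrected -1.10 and -1.20). PLAT, the tissue plasminogen activator, fell with Telaglenastat (-0.70 ± 0.18).

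CXCL8 (ENSG00000169429.10, chr4:73740506-73743716, plus strand) and CXCL1 (ENSG00000163739.4, chr4:73869393-73871242, plus strand) are chemokines whose promoters NF-kB is known to bind, and the 200 bases before their RefSeq start are printed below because only these 2 of the 8 members with a promoter in the RefSeq table held the NF-kB letters searched for. TIMP2 was not found in that table. Sequences are from RefSeq (GRCh38.p14, plus strand, 5′ to 3′). The RefSeq start of CXCL8 lies after the GENCODE gene start given above, so part of its window is inside the gene as GENCODE draws it. Capitals mark matches to NF-kB letters (GGAATTTCC, or GGG and TTTCC with any 2 bases between), to AP-1 letters (TGANTCA) and to the TATA box (TATAAA), sought on both strands.
CXCL8, chr4:73740369-73740568: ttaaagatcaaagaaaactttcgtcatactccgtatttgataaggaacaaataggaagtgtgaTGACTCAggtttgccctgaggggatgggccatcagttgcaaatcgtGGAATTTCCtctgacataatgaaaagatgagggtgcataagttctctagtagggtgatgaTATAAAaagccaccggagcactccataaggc
CXCL1, chr4:73869193-73869392: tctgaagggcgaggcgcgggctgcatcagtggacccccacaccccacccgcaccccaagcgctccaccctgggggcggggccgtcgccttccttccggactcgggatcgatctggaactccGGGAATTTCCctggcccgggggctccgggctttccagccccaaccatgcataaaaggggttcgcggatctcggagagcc
In CXCL8 the NF-kB letters lie at -91 to -83 from the RefSeq start and the AP-1 letters at -137 to -131, and in CXCL1 both NF-kB forms overlap at -79 to -70. Among 35116 promoters of 300 bases in the table, 0.461% held GGAATTTCC, 1.91% the other NF-kB form, 7.71% TGANTCA and 11.5% TATAAA. PLAUR held AP-1 letters at -186 to -180, and IGFBP4 a TATA box at -29 to -24. The E2F letters TTTNNCGC, in 6.89% of promoters, were in none of the members' windows, LMNB1 included. A match is a description of the letters and shows no binding here.

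Neither chemokine was abundant. CXCL8 had 763 reads in all libraries and at most 67 in a library, CXCL1 251 and at most 21. CXCL8 levels were 4.19, 6.99 and 3.01 CPM in Control, 3.32, 6.49, 3.70, 4.46 and 2.92 in Palbociclib, 6.79, 6.56, 7.83 and 5.41 in Telaglenastat and 5.25, 7.50, 3.37 and 8.24 in Combination tumors. All 4 groups overlapped at least 1 other, and no tumor comparison called CXCL8. Its log2 fold changes against Control were -0.18 ± 0.32 with Palbociclib, 0.38 ± 0.33 with Telaglenastat and 0.26 ± 0.33 with the Combination.

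CXCL1 rose in Combination tumors, with a call that did not hold under several alternatives. Control tumors held 1.05, 1.15 and 1.08 CPM, Palbociclib tumors 1.17, 1.96, 1.10, 1.04 and 1.02, Telaglenastat tumors 1.66, 1.12, 2.19 and 1.65, and Combination tumors 1.81, 3.15, 2.39 and 3.09 CPM. The Combination tumors lay above every Control tumor. The log2 fold change was 1.15 ± 0.42 (2.22-fold, adjusted p = 0.0322), and 0.90 ± 0.41 after correction (adjusted p = 0.11). The call was lost without any single Control tumor (adjusted p = 0.0925, 0.0796 and 0.0865) and without Combination tumor 2 or 4 (0.0724 and 0.0709). Against Palbociclib tumors the difference was 0.95 ± 0.36 (adjusted p = 0.0348, corrected 0.74, adjusted p = 0.174), lost without Combination tumor 2 or 4 (0.0917 and 0.0885) or without Palbociclib tumor 1, 3, 4 or 5 (0.0667, 0.0654, 0.0691 and 0.0655).

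None of the 8 related chemokines and receptors on the list (CXCL2, CXCL3, CXCL5, CXCL6, PPBP, CXCR1, CXCR2 and ACKR1) passed the filter in tumors. All 10 genes of the NF-kB pathway did. None was called with Palbociclib (median 0.12). With Telaglenastat 1 rose and 3 fell as deposited (median -0.21), and 2 rose and none fell after correction. With the Combination 2 rose and 3 fell (median -0.22), and 4 rose and none fell after correction (median 0.09). Of all genes, 51.1% were called with Telaglenastat and 44.5% with the Combination, or 14.9% and 26.5% after correction. The 2 that rose with the Combination as deposited were BIRC3 and NFKBIZ (0.75 ± 0.15 and 0.89 ± 0.28), also after correction (0.50 and 0.78). RELA, the p65 subunit, was -0.72 ± 0.10 with the Combination and -0.01 after correction.

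TIMP1 (ENSG00000102265.11, chrX:47582313-47586789, plus strand), an inhibitor of many secreted metalloproteinases, also fell in both groups that received Telaglenastat. Control tumors measured 66.7, 80.5 and 82.9 CPM and Palbociclib tumors 78.6, 63.5, 93.2, 104 and 79.6 CPM, with no call (0.14 ± 0.15, adjusted p = 0.722). Telaglenastat tumors, at 26.7, 24.003, 31.3 and 33.6 CPM, and Combination tumors, at 30.4, 46.1, 46.3 and 47.0 CPM, all lay below the lowest Control and Palbociclib tumor. The fall was -1.52 ± 0.16 with Telaglenastat (2.86-fold, adjusted p = 3.31e-07) and -0.95 ± 0.16 with the Combination (1.93-fold, adjusted p = 7.45e-05). After correction the former was -0.55 ± 0.14 (adjusted p = 0.00983) and the latter was lost (-0.26 ± 0.14, adjusted p = 0.171). The Combination stood below Palbociclib by -1.08 ± 0.14 (adjusted p = 4.68e-06, corrected -0.37, adjusted p = 0.0456). It stood above Telaglenastat by 0.57 ± 0.16 (adjusted p = 0.0178), and this was lost after correction (0.29, adjusted p = 0.177) and without Combination tumor 3 or 4 or Telaglenastat tumor 2 (adjusted p = 0.0548, 0.0534 and 0.0614), and in a fit of all 28 libraries (0.56). TIMP1 lies within SYN1 on the opposite strand, a gene with at most 1.15 CPM, and the strand setting of the counting is not given in the sources used here. TIMP2 overlaps 4 genes, 3 of them on the opposite strand, and CEP295NL on its own strand (at most 0.519 CPM), and PLAUR overlaps RN7SL368P on its own strand (at most 0.300 CPM), so reads of such pairs may be shared.

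TIMP2 (ENSG00000035862.12, chr17:78852977-78925387, minus strand), an inhibitor that also takes part in the activation of MMP2 by MMP14, moved less than TIMP1. Its levels were 181, 194 and 192 CPM in Control, 215, 201, 215, 259 and 204 in Palbociclib, 175, 161, 179.7 and 162 in Telaglenastat and 263, 256, 234 and 219 in Combination tumors. Each treated group lay wholly above or wholly below Control, but with Palbociclib the difference was not called by edgeR (0.22 ± 0.08, adjusted p = 0.123), though it was by DESeq2 (0.23). With the Combination it rose by 0.26 ± 0.08 (1.198-fold, adjusted p = 0.0156), more after correction (0.67 ± 0.08, 1.59-fold, adjusted p = 7.54e-06), and the call as deposited was lost without Control tumor 1 (0.23, adjusted p = 0.0689). With Telaglenastat it was -0.27 ± 0.08 as deposited (adjusted p = 0.0121) and 0.21 ± 0.08 after correction (adjusted p = 0.0945), so that the direction turned, and the call was also lost without the filter (-0.21) and in a fit of all 28 libraries (-0.16). Combination exceeded Telaglenastat tumors by 0.53 ± 0.08 (adjusted p = 8.62e-05). Against Palbociclib it differed by 0.04 ± 0.07, and by 0.45 ± 0.07 after correction (adjusted p = 0.000167).

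Of the 13 metalloproteinases and other TIMPs listed, 9 were tested. With Palbociclib 1 rose, with Telaglenastat 1 rose and 4 fell (after correction 0 and 1), and with the Combination 3 rose and 2 fell (2 and 0). Over all genes, 6.16%, 51.1% and 44.5% were called as deposited, and 7.95%, 14.9% and 26.5% after correction. MMP7, a matrilysin made by epithelial tumor cells, rose by 1.43 ± 0.16 with Palbociclib and by 1.99 ± 0.16 with the Combination and fell by -0.60 ± 0.17 with Telaglenastat, and all 3 calls held after correction (1.47, 1.73 and -0.88). It was the only call of the list with Palbociclib. MMP14 fell with Telaglenastat (-1.12 ± 0.15) and the Combination (-0.67 ± 0.15), and after correction neither was called (-0.10 and 0.19). MMP15 was similar (-1.97 ± 0.22 and -1.66 ± 0.22, corrected -0.36 and -0.34, not called). ADAM10, a sheddase that TIMP1 can inhibit, rose with the Combination (0.68 ± 0.12, corrected 0.50).

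**Figure D2:**
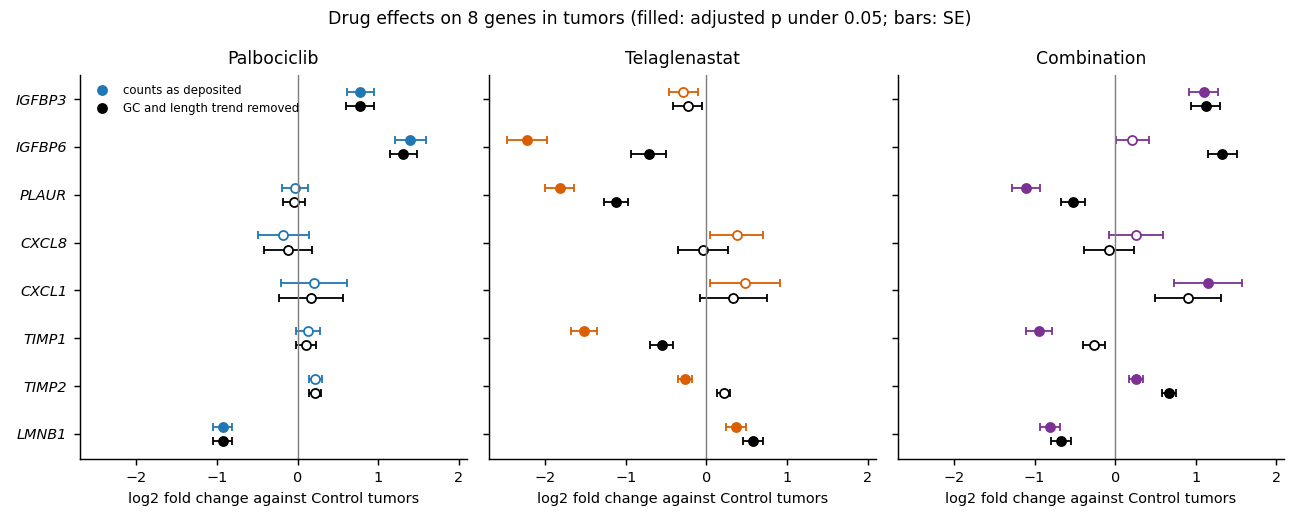
Log2 fold change against Control tumors (horizontal axes) of 8 genes in Palbociclib, Telaglenastat and Combination tumors, from counts as deposited (coloured) and after removal of the GC content and gene length trend (black), with SE bars and filled points for adjusted p under 0.05. The values lie close together with Palbociclib, while IGFBP6 moves from -2.22 to -0.72 with Telaglenastat and from 0.21 to 1.33 with the Combination.

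LMNB1 (ENSG00000113368.11, chr5:126776623-126837020, plus strand) fell in both groups that received Palbociclib and rose with Telaglenastat alone. Control tumors measured 138, 151 and 151 CPM. Palbociclib tumors measured 97.2, 79.5, 72.4, 69.1 and 66.2 CPM, Combination tumors 117, 93.2, 73.5 and 78.0 CPM, and Telaglenastat tumors 221, 178, 200.3 and 219.8 CPM. Every Palbociclib and Combination tumor lay below, and every Telaglenastat tumor above, the whole Control range. The log2 fold change was -0.93 ± 0.12 with Palbociclib (1.90-fold lower, adjusted p = 5.13e-05), -0.81 ± 0.13 with the Combination (1.75-fold lower, adjusted p = 3.41e-05) and 0.37 ± 0.13 with Telaglenastat (1.29-fold, adjusted p = 0.0182). After correction these were -0.93 ± 0.12, -0.67 ± 0.13 and 0.58 ± 0.12, all called. The rise with Telaglenastat was lost without Control tumor 1 (0.33, adjusted p = 0.0731) or Telaglenastat tumor 1 (0.32, adjusted p = 0.0534). Palbociclib and Combination tumors differed by 0.12 ± 0.12 and overlapped (adjusted p = 0.419), and the Combination stood below Telaglenastat by -1.18 ± 0.12 (adjusted p = 1.2e-06).

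Of the 9 other genes of the lamina, all tested, 2 fell with Palbociclib: TMPO, which encodes lamina-associated polypeptide 2 (-0.88 ± 0.10), and LBR, the lamin B receptor (-0.59 ± 0.07). The list median was -0.26, and 5 fell after correction. With the Combination 7 fell (median -0.87), TMPO by -0.66 ± 0.11 and LBR by -0.40 ± 0.07, while after correction 7 fell and 2 rose (median -0.34). With Telaglenastat 3 rose and 5 fell (median -0.97), but after correction none rose and 2 fell (median 0.03). Of all genes, 6.16% were called with Palbociclib, 44.5% with the Combination and 51.1% with Telaglenastat. After correction these shares were 7.95%, 26.5% and 14.9%. LMNA, the gene of the A-type lamins, and LMNB2, the other B-type lamin, were -1.03 ± 0.11 and -1.08 ± 0.13 with Telaglenastat as deposited and 0.22 and 0.16, not called, after correction. With the Combination LMNA was -0.87 ± 0.11 as deposited and 0.21 after correction, called both times with opposite signs. The rise of TMPO and LBR with Telaglenastat (0.31 ± 0.11 and 0.47 ± 0.07) was also lost (0.0035 and 0.09), whereas that of LMNB1 was not.

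Proliferation genes moved with LMNB1 in Palbociclib and Combination tumors. Of 10, 8 fell with Palbociclib (median -0.78) and all 10 with the Combination (median -0.65). Over all genes, 3.6% fell with Palbociclib and 26.9% with the Combination. MKI67, the Ki-67 antigen, fell by -1.05 ± 0.11 and -1.22 ± 0.12, and TOP2A by -0.91 ± 0.12 and -0.63 ± 0.12. With Telaglenastat 2 rose and 3 fell as deposited (median 0.13, share of all genes called 51.1%), and none was called after correction (median -0.02, share 14.9%). LMNB1 therefore remained called with Telaglenastat where none of these 10 did. Whether the difference between LMNB1 and these genes exceeds error was not tested.

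**Figure D3:**
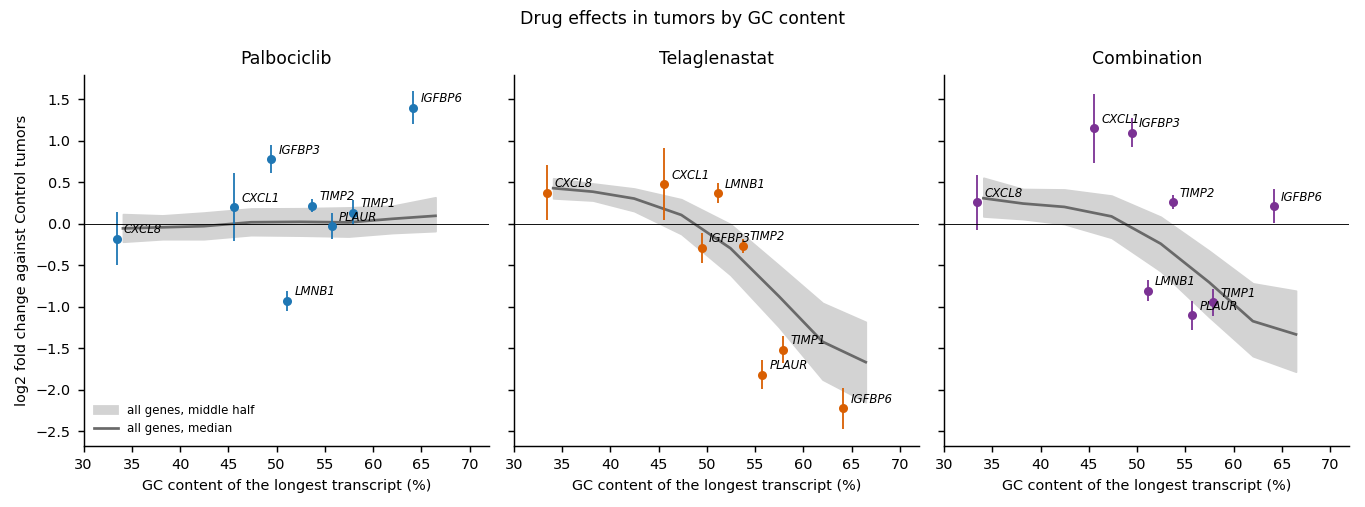
Log2 fold change against Control tumors (vertical axis) by GC content of the longest transcript (horizontal axis, percent) for all genes (line: median, band: middle 50%) and for 8 genes with SE bars, in Palbociclib, Telaglenastat and Combination tumors. The median falls to -1.67 above 65% GC with Telaglenastat, PLAUR, TIMP1 and IGFBP6 lie below the band of their GC content, and LMNB1 lies above it.

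Set beside genes of similar GC content, PLAUR (-1.82) and TIMP1 (-1.52) lay below the lower quartile of genes of 55 to 60% GC with Telaglenastat (-1.25), and IGFBP6 (-2.22) below that of genes of 60 to 65% (-1.88). TIMP2 (-0.27) lay near the median of its bin, 50 to 55% GC (-0.30), and LMNB1 (0.37) above the upper quartile of the same bin (-0.0048). On leaving out 1 library, IGFBP3 ran from -0.40 to -0.16, below the lower quartile of genes of 45 to 50% GC (-0.12). It was not called and holds 49.5% GC, near the next bin, where the lower quartile was -0.62 and the median -0.30. CXCL1, also not called, ran from 0.33 to 0.63, above the upper quartile of genes of 45 to 50% GC (0.29). It holds 45.6% GC, near the bin below, which had an upper quartile of 0.42. Neither is read as a departure from genes of similar GC content. In Combination tumors PLAUR (-1.10) and TIMP1 (-0.95) were between the lower quartile (-1.12) and the median (-0.71) of their bin. TIMP2 (0.26, upper quartile 0.08), IGFBP6 (0.21, upper quartile -0.72) and IGFBP3 (1.10, upper quartile of genes of 45 to 50% 0.34) lay above theirs, and LMNB1 (-0.81) below its lower quartile (-0.57). CXCL1, in the same bin as IGFBP3, ran from 1.05 to 1.30 on leaving out 1 library, also above the upper quartile.

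Of 24 other factors ascribed to the secretory phenotype, 12 were tested in tumors, and IL6, IL1A, IL1B, CCL2, CCL20, CSF2, MMP1 and MMP3 were among those that were too low. Of all genes tested, 6.16% were called with Palbociclib, 51.1% with Telaglenastat and 44.5% with the Combination. After correction these shares were 7.95%, 14.9% and 26.5%. With Palbociclib 1 rose, the adhesion molecule ICAM1 (0.80 ± 0.22), and 1 fell, the EGFR ligand EREG (-0.43 ± 0.11), with a list median of 0.07. With Telaglenastat 1 rose and 5 fell (median -0.34), or 1 and 2 after correction. The gene that rose was FGF2 as deposited (0.82, corrected 0.44, not called) and TNFRSF1A, a TNF receptor, after correction (-0.42 as deposited, 0.47 corrected, both called). The 2 called lower in both were ANGPTL4 (-2.68 ± 0.31, corrected -1.25) and IGFBP2. With the Combination 2 rose (ICAM1 by 0.65 ± 0.23 and AREG by 0.45 ± 0.14, the last 0.22 and not called after correction) and 5 fell (median -0.11), or 2 and 2 after correction (median 0.13). GDF15, a stress-induced cytokine, was -1.38 ± 0.32 with Telaglenastat and 0.02 after correction.

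Of 10 other senescence markers, 1 rose and 4 fell with Palbociclib (1 and 5 after correction). With Telaglenastat 4 rose and 2 fell (2 and 0 after correction), and with the Combination 1 rose and 4 fell (2 and 3). The shares of all genes called with the 3 treatments were 6.16%, 51.1% and 44.5% (7.95%, 14.9% and 26.5% after correction). MKI67 is on this list and on that of proliferation genes, so it is counted in both. Other lists share genes too: IGFBP2, IGFBP5 and IGFBP7 are on those of the IGF axis and of other secreted factors. The falls of IGFBP2 are therefore counted in both of these. CDKN2B, the CDK4/6 inhibitor p15, rose with Palbociclib (0.66 ± 0.19) and the Combination (0.97 ± 0.19), also after correction (0.67 and 0.79). HMGB2, a chromatin protein lost in senescent cells, fell with both (-1.21 ± 0.12 and -1.03 ± 0.13) and rose with Telaglenastat (0.32 ± 0.13, corrected 0.42), as LMNB1 did. CDKN1A, the CDK inhibitor p21, did not rise: it was -0.31 ± 0.10 with Palbociclib, called only after correction (-0.32), and fell with the Combination as deposited (-0.995 ± 0.11, -0.24 and not called after correction). GLB1, the gene of lysosomal beta-galactosidase, was not called with any drug (0.09, -0.20 and -0.06).

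In cultures, 7 of the 9 genes passed the filter, and CXCL1 and IGFBP4 did not. No member was called in any of the 5 comparisons by edgeR, nor by DESeq2. The backgrounds were 0% of 13985 genes for Palbociclib and for Telaglenastat against Control and for the Combination against either drug, and 0.00715% for the Combination against Control. For the Combination against Telaglenastat the count over all genes was unstable: it was 98 by DESeq2, 335 in a fit of all 28 libraries and 752 without the filter, and 0 to 916 on leaving out 1 library, with no member called in any of these. At an unadjusted p under 0.05, PLAUR and TIMP1 passed for Palbociclib against Control and for the Combination against Telaglenastat. No member passed in the other 3 comparisons. The share of all genes under that threshold was not counted, so these are not read as a result about the members. Palbociclib cultures held 7.44, 6.98 and 5.22 CPM of PLAUR against 13.99, 7.55 and 12.4 in Control cultures (-0.80 ± 0.33, adjusted p = 0.795). TIMP1 was 14.1, 16.7 and 13.5 against 28.2, 20.7 and 24.4 CPM (-0.73 ± 0.28, adjusted p = 0.795). Telaglenastat culture 2 was the highest of all cultures for both (21.4 CPM of PLAUR and 44.5 of TIMP1) and for IGFBP6 (10.3 CPM). Levels ran with GC content in cultures too, with slopes of -0.034 to 0.42 log2 per SD of GC content in Telaglenastat cultures. The mean slope was 0.085 in Control, -0.11 in Palbociclib and -0.092 in Combination cultures. PLAUR, TIMP1 and IGFBP6 hold 55.7, 57.9 and 64.1% GC, and the values above are as deposited. After correction no member was called either.

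LMNB1 in cultures was 253, 259 and 217 CPM (Control), 265, 253 and 265 (Palbociclib), 182, 193 and 264 (Telaglenastat) and 229, 273 and 256 (Combination), and all groups overlapped. TIMP2 ran from 103 to 152 CPM, IGFBP6 from 2.05 to 10.3, CXCL8 from 0.460 to 1.85 and CXCL1 from 0.143 to 1.06 CPM. IGFBP3 was at 0.427 to 4.42 CPM, with 3 to 31 reads per culture.

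Untreated tumors and their cultures were compared to see how far the members depend on the setting in which the cells grow. All 8 members tested differed, 7 higher and 1 lower in tumors, where 45.9% of 15466 genes did (23.1% higher, 22.8% lower). Tissue, growth conditions and any difference in library handling cannot be told apart here, and the fibroblast marker sum differed in the same direction. IGFBP3 was 73.6-fold higher in Control tumors (log2 6.20 ± 0.47, adjusted p = 5.68e-11), PLAUR 4.85-fold (2.28 ± 0.26, adjusted p = 7.45e-08) and CXCL8 4.76-fold (2.25 ± 0.47, adjusted p = 0.000283). TIMP1 was 3.14-fold higher (1.65 ± 0.23, adjusted p = 1.96e-06). IGFBP6 was 2.77-fold higher (1.47 ± 0.32, adjusted p = 0.000452), and 1.63-fold after correction (adjusted p = 0.0197). TIMP2 was 1.45-fold higher (0.54 ± 0.11, adjusted p = 0.000206), a call lost after correction (0.25 ± 0.13, adjusted p = 0.128), when 7 of 8 members and 40.5% of genes were called. CXCL1 was near the threshold (1.27 ± 0.52, adjusted p = 0.0458) and lost its call in 20 of 28 fits that each left out 1 library (adjusted p up to 0.182), among them those without any 1 of the 6 Control libraries. LMNB1 was the 1 member lower in tumors (-0.73 ± 0.15, adjusted p = 0.000252), and 9 of the 10 proliferation genes were lower as well.

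**Figure D4:**
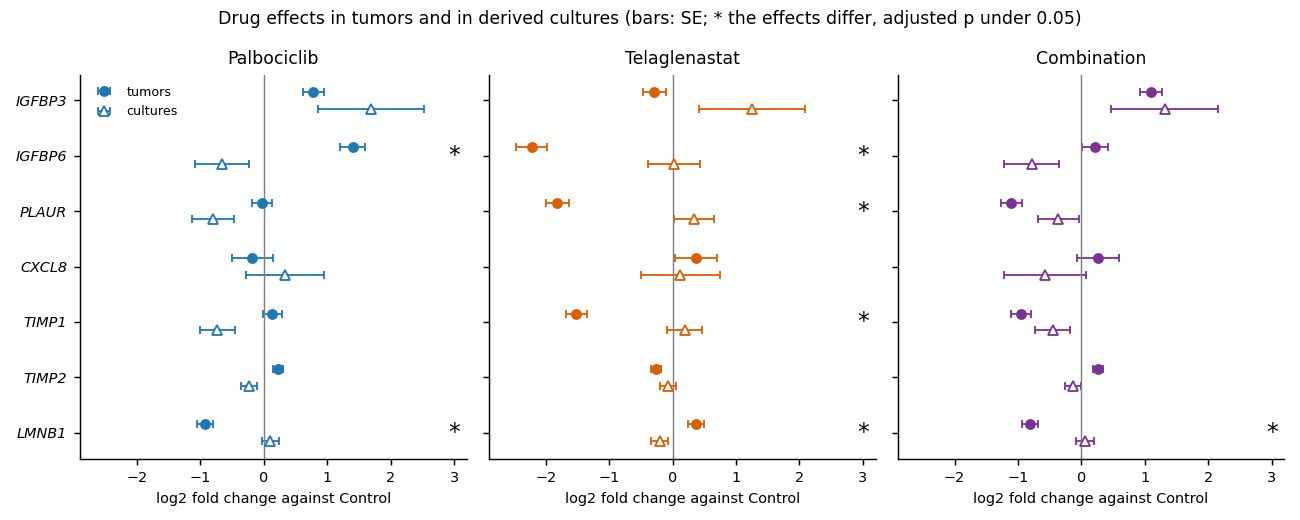
Log2 fold change against the Control group of the same tissue (horizontal axes) with SE bars for 7 genes under each drug, in tumors (filled circles) and in cultures derived from such tumors and grown without drug (open triangles). Asterisks mark the 7 gene and drug pairs in which the effects in tumors and cultures differed. The culture values straddle 0 and carry wider bars for the genes with low counts.

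The drug effects in tumors and in the derived cultures were compared directly, by the difference of the log2 fold changes in a fit of all 28 libraries. For Palbociclib 2 members differed (background 1.39%): LMNB1 by -1.04 ± 0.20 (adjusted p = 0.00597) and IGFBP6 by 2.03 ± 0.44 (adjusted p = 0.0141). Both held after correction (-1.10 and 1.45, background 1.35%). The call for IGFBP6 was lost without Control culture 1 (1.93, adjusted p = 0.0605), Control culture 3 (1.85, adjusted p = 0.0764) or Palbociclib culture 1 (1.87, adjusted p = 0.0617). For Telaglenastat 4 differed (background 34.1%): IGFBP6 by -2.18 ± 0.46 (adjusted p = 0.000926), PLAUR by -2.07 ± 0.35 (adjusted p = 0.000192), TIMP1 by -1.62 ± 0.32 (adjusted p = 0.000541) and LMNB1 by 0.67 ± 0.20 (adjusted p = 0.0131). After correction PLAUR (-1.37 ± 0.26, adjusted p = 0.00184) and LMNB1 (0.83 ± 0.20, adjusted p = 0.013) held, and IGFBP6 (-0.46, adjusted p = 0.514) and TIMP1 (-0.51, adjusted p = 0.195) did not (background 5.14%). For the Combination LMNB1 alone was called (-0.76 ± 0.20, adjusted p = 0.0403, background 2.91%, or 450 genes, a count that ran from 95 to 1242 on leaving out 1 library and was 1864 with only the groups compared), corrected -0.78 (adjusted p = 0.0297), and it lost the call as deposited in 13 of 28 fits that each left out 1 library (-0.83 to -0.67): any Control tumor or culture, any Combination culture, Combination tumor 2, 3 or 4, or Palbociclib culture 1. With the correction, IGFBP6 (1.63 ± 0.35, adjusted p = 0.00825) and TIMP2 (0.67 ± 0.18, adjusted p = 0.0409) were called too (background 2.74%). In Palbociclib cultures, grown without drug, LMNB1 stood at 253 to 265 CPM, against 217 to 259 in Control cultures.

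Levels can be compared between genes per kilobase of exon. On that scale Control tumors held 49.8 CPM per kilobase of TIMP1, 40.4 of LMNB1, 33.5 of TIMP2, 12.97 of IGFBP6, 12.3 of PLAUR, 10.9 of IGFBP3, 2.08 of CXCL8 and 0.843 of CXCL1. Control cultures held 66.9 of LMNB1, 23.1 of TIMP2, 15.9 of TIMP1, 4.69 of IGFBP6, 2.54 of PLAUR, 0.440 of CXCL8, 0.344 of CXCL1 and 0.143 of IGFBP3. IGFBP3 thus stood sixth of 8 in tumors and last in cultures. Over the 8 conditions, the mean level ran for IGFBP6 from Palbociclib tumors (45.9 ± 10.4 CPM, SD, n = 5) through Combination (21.7 ± 4.16, n = 4) and Control tumors (17.5 ± 0.829, n = 3) to a set with overlapping ranges, the cultures and the Telaglenastat tumors (3.64 to 6.41 CPM). For PLAUR the order was Control and Palbociclib tumors, which overlapped, then Combination tumors, and then Telaglenastat tumors (16.8 ± 2.28, n = 4), which overlapped Telaglenastat cultures (14.3 ± 6.15, n = 3). For LMNB1 the 4 culture groups and Telaglenastat tumors (205 ± 20.01, n = 4) formed an overlapping upper set, followed by Control tumors (147 ± 7.33, n = 3) and by Combination (90.4 ± 19.5, n = 4) and Palbociclib tumors (76.9 ± 12.4, n = 5), which overlapped.

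The genes whose log2 CPM ran most like each member were sought among 11473 protein-coding genes over the 28 libraries, each gene centred on its tissue mean. These correlations are descriptions, and the libraries share the GC slope given above. LMNB1 was closest to TMPO (r = 0.98), NCAPG, a condensin subunit, (r = 0.98) and RRM1, a subunit of ribonucleotide reductase (r = 0.97), with r of 0.89, 0.87 and 0.92 after correction, where other genes ranked above them. PLAUR was closest to CDH3, SPINT1 and AGPAT1 (0.96 each, corrected 0.89, 0.76 and 0.89). IGFBP6 was closest to KRT18, SLC2A1 and SLC39A7 (0.93, 0.92 and 0.92, corrected 0.84, 0.80 and 0.81). TIMP2 was closest to LGMN, KRT6B and TNFSF9 (0.81, 0.80 and 0.78, corrected 0.80, 0.61 and 0.82). For TIMP1 the closest were CD81, SYNGR2 and RTKN (0.96 each), but with the correction r was 0.10 for CD81 and 0.02 for RTKN, against 0.78 for SYNGR2. IGFBP3 was most like DUSP4, THSD4 and SATB1 (0.77, 0.76 and 0.74, corrected 0.72, 0.79 and 0.74). Over tumors alone these 3 ranked 27, 121 and 438 for IGFBP3 (r = 0.87, 0.78 and 0.63). The chemokines, with few reads, had weaker neighbours, CD83, CEP63 and GNPAT for CXCL8 (0.62 to 0.64) and IRF2BP2, TMBIM4 and IAH1 for CXCL1 (0.73 to 0.75). After correction these were 0.42 to 0.47 for CXCL8 and 0.56 to 0.64 for CXCL1. Over tumors alone, other genes ranked above the named genes for every member.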

How the data were processed

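RNA-seq of polyadenylated RNA was measured in 28 libraries (16 tumors, 12 cultures). Per the study's methods and the labels, the authors made FastQ files with CASAVA 1.8, aligned reads to hg38 with STAR and tested with DESeq2. The deposited values are raw read counts per gene and library. The STAR version, the annotation release and the strand setting are not given in the sources used here.

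Counts were tested with edgeR 4.0.16 (quasi-likelihood, TMM scaling, filterByExpr with a minimum count of 10) in R 4.3.3. Tumors and cultures were fitted separately with 4 group means each, and comparisons across tissues in a fit of all 28 libraries. Benjamini-Hochberg adjustment ran over all genes tested, with a threshold of 0.05. SE is the size of the log2 fold change divided by the square root of the F statistic. The correction fitted natural splines (4 degrees of freedom each) on GC content and exon length to each library by robust regression and entered them as offsets. GENCODE 29 annotation (GRCh38) gave coordinates, lengths and GC content, and 57940 of 58278 rows matched by Ensembl ID. No duplicated library was found: the smallest chi-square per gene between 2 libraries of a group was 4.02. The study's methods describe the culture libraries as independent lines from separate tumors, and the labels do not say which tumor gave which line.

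Alternatives were DESeq2 1.42.0, its size factors in edgeR, no filter, only the groups compared, a fit of all 28 libraries, the replicate number as a block, the correction, and leaving out each library. The scripts were tested on simulated data. The 9 genes, gene lists and marker lists were chosen with earlier results of these data known. An item of these lists is not reported here and was left out of their counts. From each list the defining genes and those past the threshold with the largest changes are named. The genes most like each member are the 3 with the highest Pearson correlation of log2 CPM (prior count 2) among protein-coding genes with a mean log2 CPM of at least 1.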

Additional observations from a re-analysis of the deposited data

Results flagged for a closer look

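In the tumor groups of 4 or 5 libraries, 4 values stood apart from the rest of their group by Dixon's test at the 95% level, among 26 groups tested, where chance flags about 1 in 20. TIMP1 was 30.4 CPM in Combination tumor 1 against 46.1 to 47.0 in the other 3. TIMP2 was 259 CPM in Palbociclib tumor 4 against 201 to 215 in the other 4. CXCL1 was 1.96 CPM in Palbociclib tumor 2 against 1.02 to 1.17, and this library holds 16 reads of it. IGFBP4 was 0.300 CPM in Combination tumor 2, which is 2 reads, against 0 in the other 3.

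For 7 gene and drug pairs the effect in tumors differed from the effect in the derived cultures by the test of the difference itself. The log2 differences were 2.03 (IGFBP6) and -1.04 (LMNB1) for Palbociclib, -2.18 (IGFBP6), -2.07 (PLAUR), -1.62 (TIMP1) and 0.67 (LMNB1) for Telaglenastat, and -0.76 (LMNB1) for the Combination. The cultures were grown without drug, so tissue and ongoing exposure to the drug cannot be told apart in these differences.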

How the results depend on the processing

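The number of members called was 3, 5, 6, 4 and 6 in tumors (Palbociclib, Telaglenastat and Combination against Control, Combination against Palbociclib and against Telaglenastat), and leaving out 1 library gave 3 to 3, 4 to 5, 4 to 6, 3 to 4 and 5 to 6. It was 8 for Control tumors against cultures (7 to 8), and 2, 4 and 1 for the differences between tumor and culture effects of Palbociclib, Telaglenastat and the Combination (1 to 3, 4 to 4 and 0 to 2). With the GC and length correction these differences gave 2 calls for Telaglenastat and 3 for the Combination, and with only the groups compared 2 for the Combination. Same-numbered libraries of different groups within a tissue did not deviate together from their group means (correlations -0.115 to 0.0822 in tumors, -0.361 to 0.131 in cultures). Tumors were not set against cultures in this way, so a link of tumor and culture numbers was not tested. With the replicate number as a block, Control tumors against cultures gave 5 calls and the differences 1 for Palbociclib and 0 for the Combination. With block and correction together these were 4, 1 and 2, and 2 for Telaglenastat. The block was numbered within each tissue, so for Control tumors against cultures it compared 1 reference replicate number of each tissue. Its values in that comparison are not differences of group means, and no conclusion is drawn from them.

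Directions turned under the correction for CXCL8 with Telaglenastat (-0.040, and -0.0087 with the block) and the Combination (-0.078 and -0.12), for CXCL8 in the Telaglenastat difference between tumors and cultures (-0.0070), for TIMP2 with Telaglenastat (0.21 and 0.22) and its difference (0.27 and 0.30), and for IGFBP6 in Combination against Palbociclib (0.018 and 0.0017). With correction and block they also turned for CXCL8 in Combination against Palbociclib (-0.065) and TIMP2 in Control tumors against cultures (-0.034). Leaving out 1 library turned 9 results that were not called, with ranges of -0.0058 to 0.26 (CXCL1, Palbociclib), -0.41 to 0.21 (CXCL8, Palbociclib), -0.11 to 0.12 (PLAUR, Palbociclib), -0.30 to 0.091 (CXCL8, Combination against Telaglenastat), -0.0069 to 0.21 (LMNB1, Combination against Palbociclib), and, for differences between tumors and cultures, -0.41 to 0.75 (CXCL8, Telaglenastat), -0.19 to 0.062 (TIMP2, Telaglenastat), -1.29 to 0.0099 (IGFBP3, Palbociclib) and -0.57 to 0.52 (IGFBP3, Combination). In cultures 12 of 35 member comparisons changed direction without 1 library and 5 under another alternative, and none was called. Beside the calls named with their results, DESeq2 ended that of CXCL1 in Control tumors against cultures (1.34), as did no filter (1.39), which also ended those of CXCL1 in the Combination (1.19) and against Palbociclib (0.98) and called TIMP1 (0.80) in the Palbociclib difference and IGFBP3 (-1.55) in that of Telaglenastat. The block ended CXCL1 (1.13, 0.89 and 0.68 in the same 3 comparisons, Control tumors against cultures last), CXCL8 (1.40) and TIMP2 (0.30) in Control tumors against cultures, and IGFBP6 (2.00, Palbociclib) and LMNB1 (-0.75, Combination) among the differences. The block values for Control tumors against cultures are not differences of group means, as stated above. The cause of the other changes was not tested.

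Over all genes, the correction moved the calls from 7590 to 2217 (Telaglenastat), from 6612 to 3941 (Combination), from 7064 to 2275 (Combination against Palbociclib) and from 5278 to 795 (Telaglenastat difference). A fit of all 28 libraries moved them from 914 to 513 (Palbociclib) and from 2794 to 1778 (Combination against Telaglenastat). Without the filter the Palbociclib and Combination differences rose from 215 to 608 and from 450 to 1242. The block gave 2972 in place of 7099 for Control tumors against cultures, where it does not measure the difference of group means. DESeq2 gave 497 and 687 for these differences, and only the groups compared 456 and 1864. Leaving out 1 library gave 66 to 388 and 95 to 1242. CXCL1 had at most 21 reads per library and CXCL8 67.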
